A study of Mus musculus with 4 samples.

Results

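Axon growth in young olfactory sensory neurons (OSNs) was followed through 10 genes: Gap43, Gng8, the stathmins Stmn1, Stmn2, Stmn3 and Stmn4, the collapsin response mediators Dpysl3 and Dpysl5, Dcx and Tubb3. They were taken by name from the 55511 genes of the merged table of UMI counts. Each is known for a role in growing axons or immature neurons, and earlier results of these data were known when they were chosen. A unique molecular identifier (UMI) marks 1 captured transcript, and only the 3′ end is read, so that a count does not grow with transcript length. The cells came from the main olfactory epithelium of 4 male C57BL/6 mice (C57BL/6J in the study's methods) aged 8 weeks, all in 1 group with no treatment compared, with 1 library per mouse (n = 4). Before capture, a sort had kept nucleated, living cells. The values were read along the 4 neuronal cell types of the deposited annotation, which are immediate neuronal precursors (INP), immature OSNs of 2 clusters (iOSN1 and iOSN2) and mature OSNs (mOSN), and in 10 clusters of the mature neurons.

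OSNs are replaced throughout life from basal stem cells, so an adult epithelium always holds neurons that are sending an axon to the olfactory bulb. Gap43 is a membrane phosphoprotein of the growth cone and the classical label of the immature OSN. Gng8 is a gamma subunit of heterotrimeric G proteins used before the mature subunit Gng13. Stathmins bind tubulin dimers and favour microtubule turnover, Dcx stabilises microtubules, Dpysl3 and Dpysl5 belong to the family that carries semaphorin signals to the growth cone, and Tubb3 is the beta-tubulin of neurons. Omp, the olfactory marker protein, and Adcy3, the adenylyl cyclase of odorant transduction, mark the mature cell.

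The genes are scattered over the genome. On GRCm38, Gap43 spans chr16:42248442-42340651, Gng8 chr7:16891786-16895436, Stmn1 chr4:134468320-134473843, Stmn2 chr3:8509360-8561606 and Stmn3 chr2:181306459-181314500. Stmn4 spans chr14:66344296-66361680, Dpysl5 chr5:30711564-30799375, Dcx chrX:143855842-143933311 and Tubb3 chr8:123411424-123422015.

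RefSeq promoter windows of 300 bases, from 250 before to 50 after an annotated start (GRCm38.p6), were matched for 5 of the 10 genes. Shown are 3 of these, for Gng8, which was nearly lost in mature neurons, Stmn3, which kept 35.4% of its peak level there, and Dpysl5, which was highest in precursors. They were searched on both strands for the palindromic Olf1/Ebf motif, bound by the early B-cell factors of OSNs, and for the E-boxes CAGATG and CAGCTG, bound by neurogenic bHLH factors, none of which overlapped another. Capitals mark a match.
Gng8 (chr7:16891536-16891835, + strand): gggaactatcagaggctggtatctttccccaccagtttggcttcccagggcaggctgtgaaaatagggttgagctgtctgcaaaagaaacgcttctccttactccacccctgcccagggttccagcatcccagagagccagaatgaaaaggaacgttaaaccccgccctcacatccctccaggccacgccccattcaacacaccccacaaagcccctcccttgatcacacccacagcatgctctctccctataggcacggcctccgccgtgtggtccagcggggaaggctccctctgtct
Stmn3 (chr2:181314451-181314750, - strand): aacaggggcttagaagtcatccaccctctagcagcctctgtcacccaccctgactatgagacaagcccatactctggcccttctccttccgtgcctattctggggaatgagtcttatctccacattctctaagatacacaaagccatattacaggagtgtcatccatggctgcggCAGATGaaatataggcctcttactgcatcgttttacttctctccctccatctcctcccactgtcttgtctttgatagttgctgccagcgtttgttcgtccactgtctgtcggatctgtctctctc
Dpysl5 (chr5:30711314-30711613, + strand): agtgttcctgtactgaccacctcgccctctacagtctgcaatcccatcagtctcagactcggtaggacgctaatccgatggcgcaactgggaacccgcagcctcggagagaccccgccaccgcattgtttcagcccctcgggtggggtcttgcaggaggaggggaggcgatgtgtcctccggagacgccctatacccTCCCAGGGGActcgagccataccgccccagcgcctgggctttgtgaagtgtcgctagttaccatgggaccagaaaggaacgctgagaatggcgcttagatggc
The Dpysl5 window held 1 Olf1/Ebf match, starting 53 bases before the annotated start, and 0.904% of all 32851 windows held one. The Stmn3 window held 1 CAGATG, starting 75 bases before the start, a hexamer found in 17.2% of windows. No match was present in the windows of Gng8, Dcx or Tubb3, and CAGCTG, found in 16.3% of all windows, in none of the 5 genes.

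Levels are given as UMIs of a gene per 10000 UMIs of all the cells of a type in 1 mouse, and as mean ± SD over the 4 mice. The libraries held 23157467 to 32382702 UMIs, and the stages held 38 to 100 INP, 162 to 239 iOSN1, 199 to 282 iOSN2 and 1887 to 3230 mOSN per mouse. The stage names were compared with markers outside the 10 genes. Neurod1, a factor of precursors, was at 9.63 ± 2.10 in INP and 0.0344 ± 0.0294 in iOSN1, Omp was at 1.87 ± 1.16 in INP, 5.78 ± 0.674 in iOSN1, 47.4 ± 2.46 in iOSN2 and 72.1 ± 3.78 in mOSN, and Adcy3 was at 2.83 ± 0.329 in iOSN2 and 10.97 ± 0.936 in mOSN. The study clustered the same cells on their expression and named the mature clusters by high Omp, Cnga2 and Gng13 without Gap43. Adcy3 also served there as a marker of mature OSNs. The levels of Omp, Adcy3, Gng13 and Gap43 in mOSN are therefore no check of that name, and a difference between stages describes the clusters. The divisions by Omp and by receptor, further on, did not use any of the 10 genes to split cells, but were made within these annotated cells. In INP and iOSN1 the mean of Omp was below that of immune cells (6.53 ± 1.78), and the part of background RNA in it was not tested. The summed level of the blood cell markers in iOSN1 ran from 0.128 to 24.7, high in 1 mouse, and that of the immune markers reached 0.113. Of the barcode sequences, 54 were found in more than 1 library, 26 of them among the 15859 retained cells. A level in a cell type does not tell fewer expressing cells from less RNA in each.

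The 10 genes did not move together. In the mean, 7 of them peaked in iOSN1 (Gap43, Gng8, Stmn1, Stmn2, Stmn3, Dpysl3 and Dcx), 2 peaked in INP (Dpysl5 and Tubb3), 1 peaked in iOSN2 (Stmn4), and 0 peaked in mOSN. For Gng8, Stmn2 and Dpysl3 the mice overlapped between INP and iOSN1. Within mouse, the peak was in iOSN1 in 2 of 4 mice for Gng8, 1 of 4 for Stmn2 and 4 of 4 for Dpysl3. Leaving out 1 mouse gave 5 to 7 genes with the highest mean in iOSN1. What was left in mature neurons, as a share of the peak, ran from 0.247% ± 0.0427 for Gng8 to 44.6% ± 1.19 for Stmn4. In edgeR's quasi-likelihood test on UMI sums, with the mouse as a block, 5 of the 10 genes rose and 2 fell from INP to iOSN1, where 49.7% of the 11075 genes tested passed (26.9% rose and 22.8% fell). From iOSN1 to iOSN2, 9 fell and 1 rose, while 57.8% of all genes passed (28.6% fell and 29.2% rose). Scaled by library size alone, 39.5% of all calls in this step were higher in iOSN2, against 50.6% with TMM, and the calls of the 10 genes kept their directions. From iOSN2 to mOSN all 10 fell, while 47.1% of all genes passed and 24.3% fell. Gap43 is among the 10, and its absence had served to name the mature clusters. All 10 genes passed the filter on low counts in these fits.

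**Figure D1:**
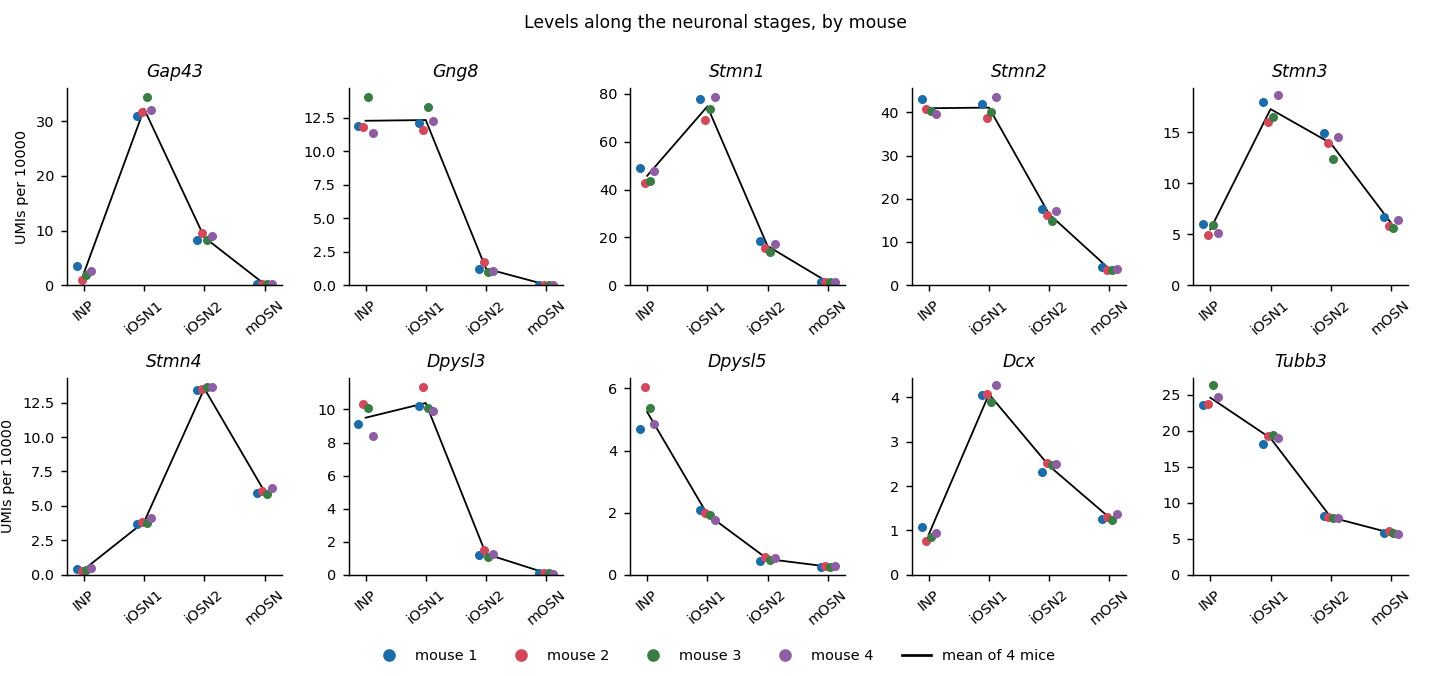
Each panel plots 1 gene, with the stage on the x axis and its level in UMIs per 10000 on the y axis, from 0; points are the 4 mice and the line joins the means. Gap43 forms a sharp peak in iOSN1 at 32.3, Stmn4 peaks a stage later at 13.5, and Tubb3 and Dpysl5 fall from INP onward.

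Gap43 was highest in iOSN1 by a wide margin. In INP its level was 3.54, 0.982, 1.88 and 2.58 in mice 1 to 4, in iOSN1 30.9, 31.7, 34.4 and 32.0, in iOSN2 8.32, 9.54, 8.18 and 8.95 and in mOSN 0.216, 0.177, 0.134 and 0.177. The 4 ranges did not overlap, and the order iOSN1, iOSN2, INP, mOSN held in every mouse. The rise from INP to iOSN1 was 11.4-fold (log2 3.51, SE 0.10, edgeR adjusted p = 3.41e-35), and the fall was 3.39-fold into iOSN2 and 48.3-fold from iOSN2 into mOSN (log2 −5.59, SE 0.09, edgeR adjusted p = 8.46e-47). Since the mature clusters were named by a lack of Gap43, the last fall was in part set by the naming. Relative to its mean, Gap43 varied more between mice in INP than in any later stage, with an SD of 1.08 on a mean of 2.25. The lowest of these values, in mouse 2, rested on 18 UMIs in 38 cells.

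Gng8 was already high in INP, before the rise of Gap43. Its level was 11.9, 11.8, 14.0 and 11.4 in INP, 12.1, 11.6, 13.3 and 12.3 in iOSN1, 1.18, 1.69, 0.995 and 1.06 in iOSN2 and 0.0369, 0.0295, 0.0286 and 0.0280 in mOSN. INP and iOSN1 overlapped (log2 change −0.11, SE 0.07, edgeR adjusted p = 0.164), and the later ranges were apart. Without the filter on low counts the log2 change from INP to iOSN1 was 0.0077 and did not pass. Gng8 fell 9.18-fold from iOSN1 to iOSN2 and 38.4-fold from iOSN2 to mOSN (log2 −5.26, SE 0.14, edgeR adjusted p = 1.29e-36). The ratio of Gng8 to Gap43 UMIs went from 6.80 ± 3.87 in INP to 0.382 ± 0.0119 in iOSN1. In INP it ranged from 3.36 in mouse 1 to 12 in mouse 2, and both lay above every iOSN1 value. The ratio of mouse 2 rested on 18 Gap43 UMIs in 38 INP.

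The loss of Gng8 ran beside an exchange of G protein subunits. Gng13, its mature counterpart and one of the genes that named the mature clusters, rose from 3.19 ± 1.65 in INP to 21.9 ± 1.67 in iOSN1 and 82.7 ± 3.46 in iOSN2, and was at 89.7 ± 3.40 in mOSN, a last step that did not pass the test (edgeR adjusted p = 0.347). The ratio of Gng13 to Gng8 UMIs was 0.268 ± 0.156 in INP, 1.78 ± 0.0548 in iOSN1, 70.0 ± 15.98 in iOSN2 and 2946 ± 298 in mOSN, so the 2 subunits were closest in iOSN1. In INP, Gng13 and Gnal lay below their levels in immune cells (7.09 ± 1.27 and 2.62 ± 0.469). Immune cells were shallower (median 2144 UMIs, against 7545.5 in INP), so these levels are not compared at equal depth. Background may make up part of the INP levels of Gng13 and Gnal and of the INP ratio, and its size was not tested. The alpha subunits changed places in the same stages. Gnas, the alpha subunit of most tissues, fell from 14.5 ± 0.800 in INP to 2.10 ± 0.113, 0.360 ± 0.166 and 0.0442 ± 0.0166, while Gnal, the olfactory alpha subunit, rose from 0.867 ± 0.348 to 4.39 ± 0.320, 17.6 ± 0.910 and 27.2 ± 1.44. Gnb1, a beta subunit, rose at each step from 6.74 ± 0.246 to 44.9 ± 2.05. Gnao1, an alpha subunit abundant in growth cones, was highest in iOSN1 at 3.91 ± 0.153 and fell only to 2.37 ± 0.0774 in mOSN.

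The 4 stathmins followed different courses. Stmn1, the ubiquitous member, was at 49.0, 42.8, 43.6 and 47.6 in INP, 77.9, 69.0, 73.5 and 78.6 in iOSN1, 18.6, 15.7, 13.8 and 17.3 in iOSN2 and 1.36, 1.24, 1.24 and 1.31 in mOSN. It was the member with the highest level in iOSN1 and fell 12.5-fold in the last step alone. Stmn2, a stathmin of neurons and their growth cones, was at 43.1, 40.7, 40.3 and 39.7 in INP and 42.0, 38.7, 40.03 and 43.6 in iOSN1, where the mice overlapped (log2 change −0.09, SE 0.08, edgeR adjusted p = 0.350). Scaled by library size alone, the log2 change was 0.011 and did not pass. In cells with at least 2000 genes and at most 5% mitochondrial UMIs it was −0.16 and passed the test. Stmn2 then fell to 17.5, 16.3, 14.8 and 17.1 in iOSN2 and 4.16, 3.61, 3.44 and 3.69 in mOSN, so 8.88% ± 0.542 of the peak was left.

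Stmn3 and Stmn4 stayed on in the mature neuron. Stmn3 was at 6.05, 4.91, 5.86 and 5.09 in INP, 18.0, 15.99, 16.5 and 18.7 in iOSN1, 14.9, 13.9, 12.4 and 14.5 in iOSN2 and 6.65, 5.78, 5.64 and 6.39 in mOSN, with mOSN overlapping INP. Its step from iOSN1 to iOSN2 was small, at log2 −0.18 (SE 0.05, edgeR adjusted p = 0.00111), and did not pass without mouse 3 (log2 −0.08), without mouse 4 (log2 −0.15) or without the mouse as a block (log2 −0.18). Stmn4 was the one gene that rose from iOSN1 to iOSN2, 3.85-fold (log2 1.95, SE 0.05, edgeR adjusted p = 2.41e-38). Its level was 0.447, 0.273, 0.346 and 0.455 in INP, 3.68, 3.85, 3.74 and 4.09 in iOSN1, 13.4, 13.5, 13.6 and 13.6 in iOSN2 and 5.90, 6.08, 5.89 and 6.28 in mOSN. No ranges overlapped, and the mature level was above that of iOSN1 in all 4 mice. The ratio of Stmn4 to Stmn2 UMIs went from 0.00927 ± 0.00208 in INP through 0.0936 ± 0.00489 and 0.827 ± 0.0673 to 1.63 ± 0.140 in mOSN.

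The collapsin response mediators were both high early and low in mature neurons. Dpysl3 was at 9.15, 10.4, 10.1 and 8.40 in INP and 10.2, 11.4, 10.1 and 9.89 in iOSN1, which overlapped, then at 1.199, 1.497, 1.08 and 1.27 in iOSN2 and 0.0927, 0.121, 0.113 and 0.0700 in mOSN. It thus followed Gng8 rather than Gap43 at the start and fell 7.58-fold and 12.5-fold in the later steps. Dpysl5 was a gene of precursors, at 4.70, 6.05, 5.36 and 4.86 in INP, 2.09, 1.98, 1.93 and 1.77 in iOSN1, 0.437, 0.583, 0.477 and 0.532 in iOSN2 and 0.235, 0.292, 0.254 and 0.275 in mOSN. It fell 2.85-fold from INP to iOSN1 (log2 −1.51, SE 0.08, edgeR adjusted p = 2.62e-24), the step in which Gap43 rose.

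Dcx and Tubb3, both widely used as labels of young neurons, were kept by mature OSNs. Dcx was at 1.08, 0.763, 0.847 and 0.946 in INP, 4.05, 4.07, 3.90 and 4.27 in iOSN1, 2.32, 2.53, 2.47 and 2.5 in iOSN2 and 1.26, 1.29, 1.23 and 1.37 in mOSN, so mature neurons were above precursors in all 4 mice, and 31.7% ± 0.325 of the peak was left. Tubb3 was at 23.6, 23.7, 26.3 and 24.7 in INP, 18.2, 19.3, 19.4 and 18.9 in iOSN1, 8.20, 7.97, 7.92 and 7.87 in iOSN2 and 5.79, 6.04, 5.78 and 5.59 in mOSN, falling in each step without overlap. In the last step it fell least of the 10, 1.36-fold (log2 −0.44, SE 0.05, edgeR adjusted p = 6.02e-11).

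Whether the last traces in mature neurons stood above free RNA was read from cells that should lack these genes. Immune cells, which the study removed, held Gap43 at 0.163 ± 0.224, Gng8 at 0.0870 ± 0.0488 and Dpysl3 at 0.104 ± 0.0597, and the mature neurons held 0.176 ± 0.0335, 0.0307 ± 0.00412 and 0.0993 ± 0.0229. For these 3 genes the mature range did not clear the immune range, which for Gap43 was set by mouse 2 (0.497, and at most 0.0788 in the others). Immune cells were also shallower, at a median of 2144 UMIs against 4861 in mOSN. Sustentacular cells (median 5587 UMIs) held less of these 3 genes than mature neurons in 4 of 4 mice, at 0.0515 ± 0.0643, 0.00950 ± 0.0112 and 0.0472 ± 0.0440. The 2 backgrounds thus differ, and the mature level of these genes was not settled. Their folds into mOSN, the shares of the peak left and the ratios to Gng8 in mOSN are values of the counted UMIs, which include background of unknown size. Stmn1 in mature neurons (1.29 ± 0.0564) was below immune cells (5.89 ± 1.97), some of which divide, and was above the supporting sustentacular cells (0.813 ± 0.221) in all 4 mice. The other 6 genes were above immune cells in 4 of 4 mice, by the widest margin for Stmn4 (6.04 ± 0.183 against 0.560 ± 0.0920) and Stmn3 (6.12 ± 0.487 against 0.598 ± 0.144).

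Shares of cells with at least 1 UMI were compared at an equal depth of 3000 UMIs drawn from every cell. Too shallow for this were 39 of 284 INP, 35 of 866 iOSN1, 44 of 1006 iOSN2, 1572 of 10519 mOSN, and 1492 of 2391 immune cells. Gap43 was found in 29.5% ± 9.49 of INP, 96.8% ± 0.734 of iOSN1, 71.6% ± 4.4 of iOSN2 and 3.72% ± 0.587 of mOSN, against 1.32% ± 1.04 of immune cells. The share in mOSN (4.34, 3.98, 2.96 and 3.59% by mouse) was above that in immune cells (0.559, 2.84, 0.760 and 1.14%) in 4 of 4 mice, but in mouse 2 the level was higher in immune cells, so no order is read from it. Without thinning these shares were 41.3% ± 10.2, 97.4% ± 1.18, 84.8% ± 3.28, 5.73% ± 0.783 and 1.46% ± 0.701. The median depth of these cells before thinning was 7525.5 UMIs in iOSN2, 5258 in mOSN and 5516 in immune cells. Gng8 was found in 94.8% ± 0.948 of INP, 86.7% ± 1.85 of iOSN1, 13.3% ± 1.55 of iOSN2 and 0.918% ± 0.0550 of mOSN, the last no higher than the 1.29% ± 0.554 of immune cells. The share of iOSN2 with a UMI was therefore far higher for Gap43 than for Gng8 in every mouse, while in INP the order was the reverse. Stmn4 was found in 8.54% ± 3.42 of INP, 50.5% ± 2.42 of iOSN1, 88.0% ± 3.44 of iOSN2 and 63.8% ± 1.06 of mOSN, and Tubb3 in 74.5% ± 0.944 of mOSN.

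In iOSN1, transcripts of immature and mature genes were often found in the same barcodes. At 3000 UMIs per cell, Gap43 and Omp were both found in 39.6% ± 3.58 of iOSN1. Every iOSN2 and mOSN cell held Omp at that depth, so there the joint share is that of Gap43 alone (71.6% ± 4.4 and 3.72% ± 0.587). Gng8 and Gng13 were both found in 70.8% ± 2.89 of iOSN1 and 12.5% ± 1.58 of iOSN2. Immune cells, which should lack both, held Omp at 6.53 ± 1.78 and Gng13 at 7.09 ± 1.27, and the part of free RNA in these shares was not tested. Of the 10 genes, an average cell showed 6.88 ± 0.156 in INP, 8.30 ± 0.0368 in iOSN1, 6.29 ± 0.118 in iOSN2 and 3.52 ± 0.0603 in mOSN, and 0.306 ± 0.0757 in sustentacular cells, the lowest of the 12 types, 0.900 ± 0.230 in immune cells and 2.02 ± 0.311 in GBC.

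The neurons were also divided by their Omp counts, without use of the 10 genes. All INP, iOSN1, iOSN2 and mOSN cells were pooled and divided by their Omp UMIs per 10000 into none (0, 645 cells), low (up to 20, 521 cells), middle (up to 50, 2259 cells) and high (above 50, 9250 cells). The Omp level of the low group (6.54 ± 0.625) was close to that of immune cells (6.53 ± 1.78), which were shallower (median 2144 UMIs, against 6830.5 in iOSN1). Background may thus enter the split of none and low, and its size was not tested. The low group was 74.7% iOSN1 and the middle group 74.9% mOSN. From none to low, 4 of the 10 genes rose and 3 fell, while 28.7% of the 11444 genes tested passed (16.5% rose and 12.2% fell). From low to middle 9 fell and 1 rose, while 56.1% of all genes passed (27.9% fell and 28.2% rose, 39.0% of all calls were higher with library size alone and 50.3% with TMM), and from middle to high all 10 fell, while 25.5% passed and 12.7% fell. Gap43 was at 15.2, 25.2, 18.9 and 21.4 without Omp, 28.7, 30.9, 29.4 and 29.5 at low, 3.67, 5.81, 4.28 and 4.28 at middle and 0.386, 0.536, 0.499 and 0.399 at high Omp. It was highest in the low group, and fell 6.09-fold from low to middle (log2 −2.61, SE 0.08, edgeR adjusted p = 2.20e-25). Gng8 was at 12.5, 12.3, 14.2 and 11.98 without Omp, 11.2, 11.9, 12.7 and 13.0 at low, 0.596, 1.11, 0.866 and 0.848 at middle and 0.0396, 0.0436, 0.0377 and 0.0354 at high Omp, and did not differ beyond its spread between none and low (log2 −0.07, SE 0.08, edgeR adjusted p = 0.549). With cells thinned to 3000 UMIs, which left out cells below that depth and set the Omp groups anew from the thinned counts, Gng8, Stmn1 and Stmn2 all fell from none to low (log2 −0.34, −0.19 and −0.27), so this is a comparison of partly other cells.

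Stmn4 was again the gene that rose past the point where the others fell. Its level was 1.57, 2.54, 1.34 and 1.60 without Omp, 4.07, 5.05, 4.07 and 5.17 at low, 9.02, 9.12, 8.45 and 9.29 at middle and 6.10, 6.47, 6.41 and 6.39 at high Omp, with no overlap, a rise of log2 1.12 (SE 0.08) from low to middle and a change of log2 −0.48 (SE 0.07) from middle to high. Stmn3 and Dcx were highest at low Omp (17.0 ± 1.69 and 3.64 ± 0.185). Dpysl3, Dpysl5 and Tubb3 fell from the group without Omp onward (11.3 ± 1.02, 3.25 ± 0.454 and 21.4 ± 1.62). The fall of Tubb3 from none to low was small (log2 −0.19, SE 0.06, edgeR adjusted p = 0.0158) and did not pass without mouse 3 (log2 −0.16) or mouse 4 (log2 −0.20), with Omp limits of 10 and 40 UMIs (log2 −0.07), or without the mouse as a block (log2 −0.19). The fall of Dpysl3 from none to low did not pass with those limits either (log2 −0.18). With cells thinned to 3000 UMIs and grouped anew in that way, Dcx did not pass from none to low (log2 0.00), and Dcx and Dpysl5 did not pass from middle to high (log2 −0.08 and −0.19).

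**Figure D2:**
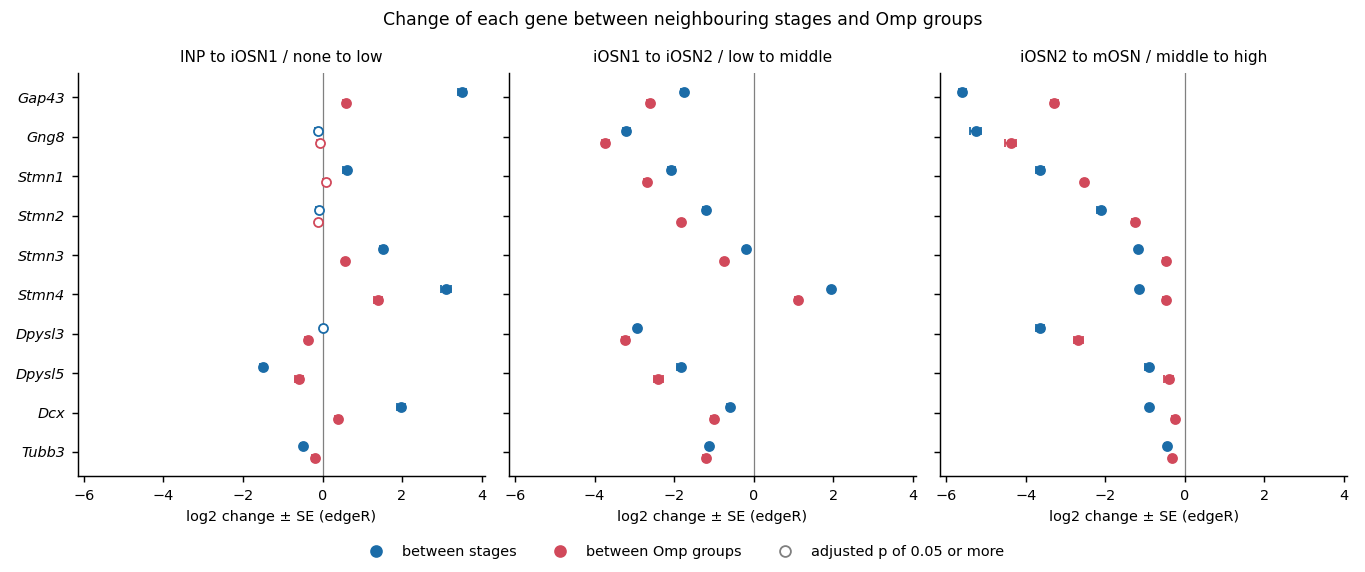
The x axis is the fitted log2 change (edgeR, 4 mice) with an SE derived from its F value, and the rows are the 10 genes. Blue points compare neighbouring stages, red points neighbouring Omp groups, and open points did not pass an adjusted p of 0.05. In the right panel all 20 points lie below 0, with Gap43 and Gng8 farthest, and in the middle panel Stmn4 alone lies above 0.

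A longer list of 55 other genes of growth cones, the cytoskeleton and young neurons, 51 of which passed the filter, was read beside them. From INP to iOSN1, 25 rose and 18 fell, where 26.9% and 22.8% of all genes did, with a median log2 change of 0.19, against 0.05 over all genes. From iOSN1 to iOSN2, 11 rose and 35 fell, where 29.2% and 28.6% of all genes did (median −0.61, against −0.03), and from iOSN2 to mOSN 4 rose and 34 fell, where 22.8% and 24.3% did (median −0.58, against 0.01). In the last step the list fell most at Marcksl1 (log2 −4.42, SE 0.08), a membrane substrate of protein kinase C, Sox11 (−3.82, SE 0.10), a transcription factor of young neurons, and Basp1 (−3.70, SE 0.13), a growth cone protein related in function to Gap43. The genes that rose were Map1a, a microtubule-associated protein of mature neurons (log2 0.61, SE 0.07), the kinase gene Pak3 (0.30, SE 0.06), the alpha-tubulin Tuba1b (0.28, SE 0.11) and the RNA-binding protein gene Elavl3 (0.17, SE 0.05), which was named after its value was seen. Basp1 and Sox11 had fallen already from INP to iOSN1 (log2 −0.44 and −1.78), where Gap43 rose. By Omp group, 13 of the list rose and 17 fell from none to low (16.5% and 12.2% of all genes), 9 rose and 36 fell from low to middle (28.2% and 27.9%), and 2 (Map1a and Map6) rose and 26 fell from middle to high (12.8% and 12.7%).

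Outside the 4 neuronal types, several of the 10 genes were above the immune range in GBC and a few elsewhere. Stmn1 was at 34.3, 28.1, 26.4 and 30.5 in globose basal cells (GBC), the dividing progenitors, and at 18.9, 17.1, 14.7 and 20.6 in the Mv2 microvillar cells, a range that overlapped iOSN2. Gng8 (0.777 ± 0.372), Dpysl5 (0.546 ± 0.0945) and Stmn2 (1.41 ± 0.570) in GBC were also above immune cells in 4 of 4 mice, and at 3000 UMIs Gng8 was found in 14.0% ± 4.26 of GBC. The GBC cluster also held markers of other cells, with summed levels of 30.3 for the INP list (93.5 in INP), 9.08 for ensheathing glia and 8.66 for microvillar cells, and their part in these values was not tested. In Mv2 cells the other stathmins were at 0.218, 0.121 and 0.0567 (Stmn2, Stmn3 and Stmn4). Dpysl3 was at 1.14 ± 0.130 in Mv2, 1.26 ± 0.239 in GBC and 1.15 ± 0.343 in the cluster labelled HBC2, overlapping iOSN2, and lay above mature neurons in all 4 mice in each of these types. HBC2 is named for horizontal basal cells, but its markers of sustentacular cells summed to 117 (93.0 in Sus) and those of horizontal basal cells to 24.4. In HBC1 the same sums were 56.6 and 46.6. Tubb3 was present in GBC at 8.49, 8.70, 3.88 and 4.30, higher in mice 1 and 2 than in mice 3 and 4, and this range overlapped both iOSN2 and mOSN. Gap43 in HBC1 was at 0.0253, 2.31, 0.0341 and 1.93, with mice 2 and 4 apart from the others, and in Mv1 cells at 0 in 3 mice and 1.90 in mouse 2. In the same Mv1 cells of mouse 2, Stmn2 was at 5.43 and Omp at 12.7, against at most 0.119 and 2.28 in the other mice, so these neuronal genes moved together there, and the part of neuronal RNA in those values was not tested.

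**Figure D3:**
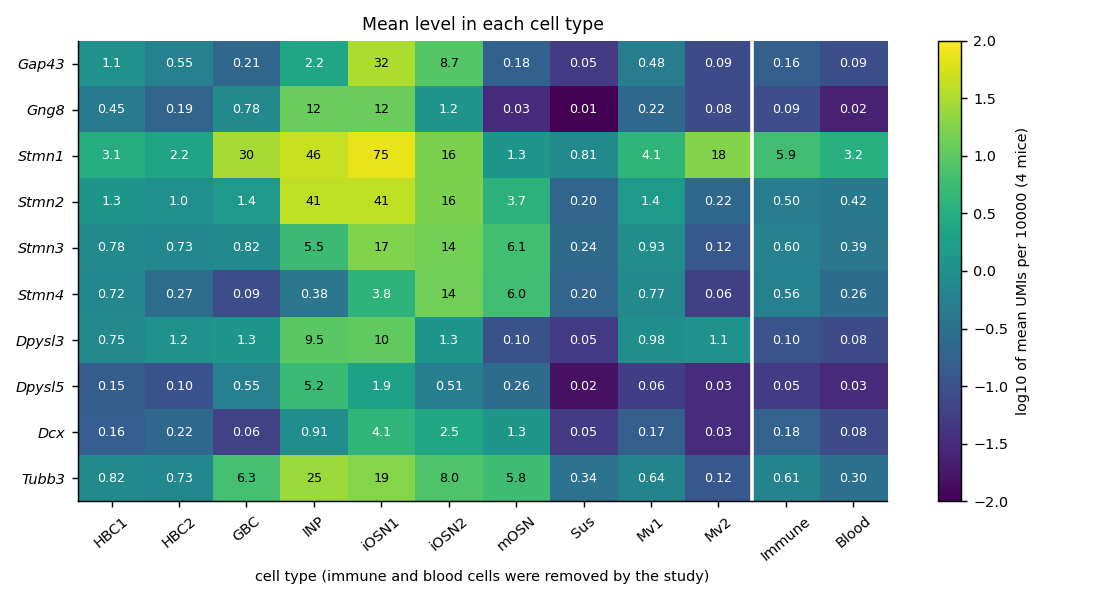
Rows are the 10 genes and columns the 10 cell types of the annotation, with immune and blood cells to the right of the white line; colour is the log10 of the mean level over 4 mice and the figure in each cell is that mean in UMIs per 10000. Most genes are brightest in INP or iOSN1, and Stmn4 in iOSN2. Stmn3, Stmn4 and Tubb3 stay bright in mOSN (6.1, 6.0 and 5.8), and Stmn1 extends to GBC (29.8) and Mv2 (17.8).

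Within mature neurons the genes that were kept were not spread evenly. The study had divided these cells, without their receptor genes, into 10 clusters that pair a dorsal and a ventral group for neurons with Calb2, Cd36, Cd55 or Dlg2 and for the remainder, with 142 to 4600 neurons each. Of the 10 genes, 9 passed the filter (all but Gng8) and all 9 differed between clusters, against 47.7% of the 8684 genes tested, and these calls again describe clusters built on expression. Gap43 was highest in the Calb2 dorsal cluster, at 0.853, 0.474, 0.411 and 0.718, and the Calb2 ventral cluster, at 0.613, 0.605, 0.311 and 0.410. In the other 8 clusters it ran from 0 to 0.222, below both Calb2 clusters in every mouse, and within mouse the Calb2 ventral value lay above immune cells (0.0788, 0.497, 0.0218 and 0.0539) in 4 of 4 mice and the Calb2 dorsal value in 3 of 4, the exception being mouse 2. Stmn4 was highest in the same 2 clusters (9.08, 9.38, 9.28 and 9.46 dorsally and 9.26, 7.69, 6.88 and 7.25 ventrally) and lowest in Cd55 dorsal neurons (1.98, 1.27, 2.12 and 2.87). The lowest and the highest cluster mean were 2.06 and 9.30, so some mature neurons held more Stmn4 than the mean of iOSN1 (3.84) and others less.

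Dcx and Tubb3 divided the clusters in another way. Dcx was at 0.339, 0.503, 0.366 and 0.470 in Cd36 dorsal and 0.524, 0.586, 0.426 and 0.503 in Cd36 ventral neurons, by the mean below the other 8 clusters, where means ran from 0.857 (Dlg2 ventral) to 1.66 (Calb2 ventral). Tubb3 was highest at 10.04, 9.81, 8.91 and 8.11 in Cd55 dorsal and 9.52, 8.69, 9.15 and 8.76 in Cd55 ventral neurons, and lowest in Dlg2 dorsal (5.16 ± 0.411) and the large ventral cluster (5.19 ± 0.122). Stmn2 was higher in the dorsal member of each of the 5 pairs by its mean, for example 5.43, 4.41, 4.09 and 4.87 in the large dorsal and 3.58, 3.08, 3.01 and 3.23 in the large ventral cluster. Dpysl3, near background elsewhere, reached 0.239, 0.400, 0.363 and 0.152 in Cd36 ventral and 0.375, 0.401, 0.264 and 0.155 in Cd55 ventral neurons. Stmn3 differed least among the stathmins kept, with means from 4.87 (Cd36 dorsal) to 6.77 (Calb2 dorsal). The call for Dpysl5 (edgeR adjusted p = 0.0113) did not hold without mouse 1 (adjusted p = 0.232).

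**Figure D4:**
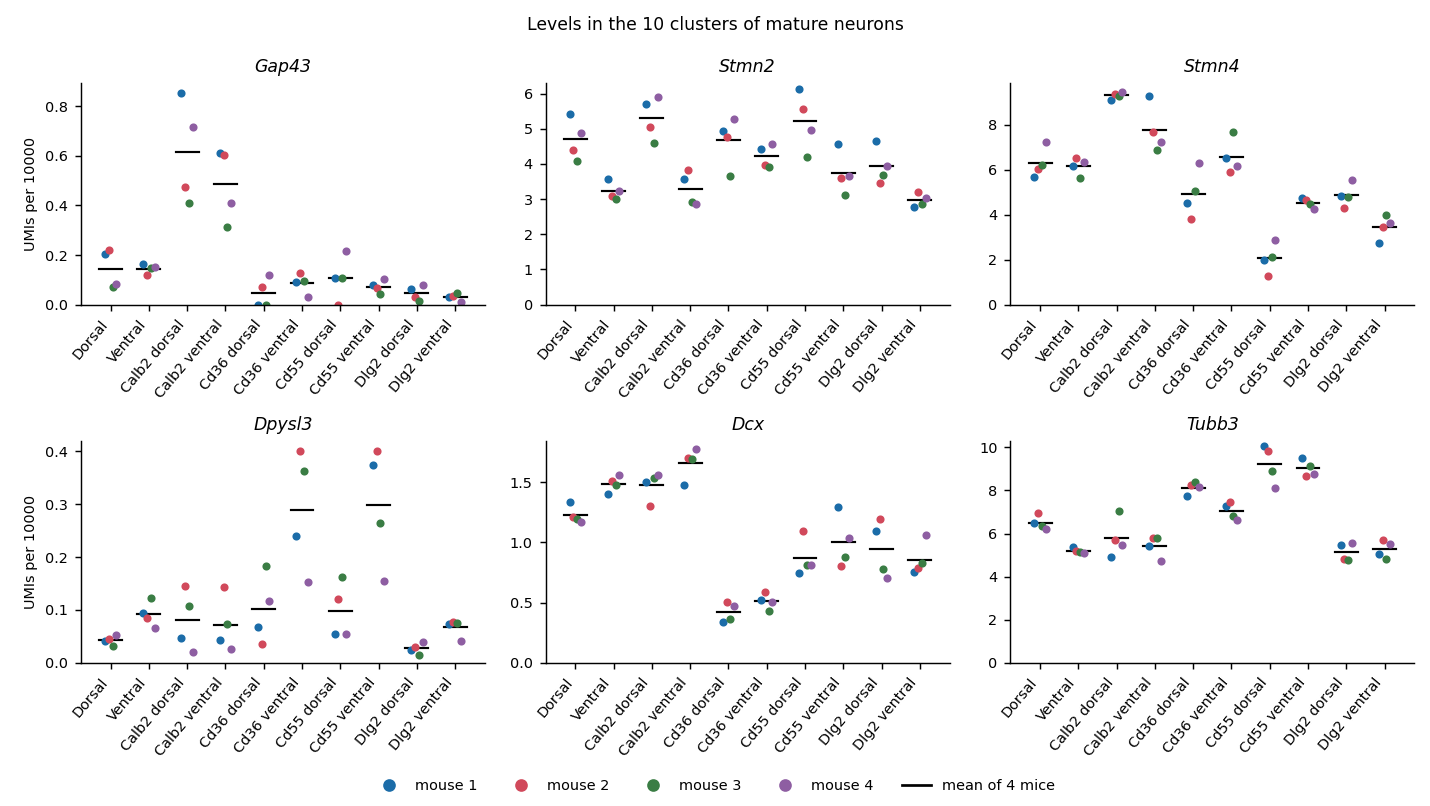
Each panel plots 1 gene over the 10 mature clusters on the x axis, with its level in UMIs per 10000 on the y axis, from 0; points are the 4 mice and the bar is their mean. The 2 Calb2 clusters stand out for Gap43 and Stmn4, the Cd55 clusters for Tubb3, and the Cd36 clusters are lowest for Dcx.

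Neurons were also compared by the class of their receptor, which is read from receptor genes alone. Class I receptors are encoded in 1 cluster on chromosome 7 and are mostly chosen by dorsal neurons, and class II receptors are the other Olfr genes. Among mature neurons, 1071 had a class I and 8641 a class II receptor. Of the 10 genes, 3 were higher and 5 lower in class I neurons, while 18.6% of the 11835 genes tested passed (9.71% higher and 8.89% lower, 33.4% of all calls were higher with library size alone and 52.2% with TMM). Stmn2 was at 5.61, 4.65, 4.67 and 5.38 in class I and 3.91, 3.42, 3.23 and 3.51 in class II neurons, which did not overlap, 1.504-fold higher (log2 0.59, SE 0.04, edgeR adjusted p = 4.40e-38). Tubb3 was at 6.98, 7.65, 7.42 and 7.40 and 5.68, 5.78, 5.58 and 5.40, also apart (log2 0.45, SE 0.03, edgeR adjusted p = 5.11e-30), and Dcx was lower in class I, at 1.03, 0.985, 0.886 and 0.850 against 1.28, 1.31, 1.27 and 1.39 (log2 −0.39, SE 0.07, edgeR adjusted p = 3.08e-07).

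The remaining class differences were less certain or near the background. Gap43 was at 0.170, 0.0547, 0.0618 and 0.0607 in class I and 0.210, 0.173, 0.137 and 0.176 in class II neurons, lower in 4 of 4 mice (log2 −0.79, SE 0.19, edgeR adjusted p = 6.04e-04), and log2 −1.36 without mouse 1, whose class I value stood apart. Both classes lay within the range of immune cells for Gap43 (0.0218 to 0.497), and the class I sums held 55 Gap43 UMIs in the 4 mice. Stmn1, Stmn3, Stmn4 and Dpysl3 passed with log2 differences of −0.27, 0.11, −0.10 and −0.92, but each lost the call when 1 mouse was left out (mouse 1 for Stmn1, mouse 1 or 4 for Stmn3, mouse 2 or 3 for Stmn4 and mouse 1 or 2 for Dpysl3, with log2 differences of −0.18, 0.08 and 0.06, −0.04 and −0.09, and −0.71 and −0.66). Gng8 and Dpysl5 did not pass. Without the mouse as a block 3 genes passed, Stmn2, Tubb3 and Dcx, and with DESeq2 4 passed, these and Gap43, while the log2 differences stayed close (without the block −0.77 for Gap43, −0.89 for Dpysl3, −0.26 for Stmn1, 0.11 for Stmn3 and −0.11 for Stmn4).

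Restricting both classes to the dorsal clusters, an alternative added after the data were seen, gave the same direction for 7 of the 8 genes tested. There 545 of 9499 genes (5.74%) passed, 307 higher in class I (3.23%) and 238 lower (2.51%). Stmn2 was higher by log2 0.26 (SE 0.04) against 0.59 over all mature neurons, and Tubb3 by 0.39 (SE 0.04). Gap43 was lower, at log2 −1.53 (SE 0.21), with Stmn1 at −0.50 (SE 0.08), Dcx at −0.36 (SE 0.08) and Stmn4 at −0.24 (SE 0.05). The value of Gap43 rests on few counts, since class I neurons of all clusters held 55 Gap43 UMIs. The dorsal clusters held 196 to 316 class I and 350 to 523 class II neurons per mouse. Stmn3, higher over all neurons, was at −0.03 (SE 0.04) and did not pass.

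In iOSN2, 85 cells had a class I and 807 a class II receptor. There edgeR called 0 of the 10 genes, against 1.8% of 7707 genes (0.986% higher in class I and 0.817% lower). Scaling by library size alone put 45.3% of all calls higher in class I, against 54.7% with TMM. At an unadjusted p under 0.05, 3 of the 10 genes passed (Stmn4, Dpysl3 and Dcx), and DESeq2 also called 0, with 2 at that unadjusted level. Stmn4 was closest, at 9.88, 9.78, 12.2 and 12.4 in class I and 14.7, 13.7, 13.9 and 14.5 in class II cells, which did not overlap (log2 −0.34, SE 0.09, edgeR adjusted p = 0.0562). Omp differed between the same cells, at 40.6, 41.6, 43.0 and 34.5 in class I and 45.3, 50.6, 49.6 and 49.9 in class II iOSN2 without overlap, and in mature neurons it was lower in class I in 4 of 4 mice (59.7, 64.7, 60.2 and 65.9 against 69.6, 77.0, 71.5 and 75.9); its part in the class differences was not tested. Stmn2 was at 18.0, 12.8, 17.1 and 23.5 and 17.7, 16.5, 14.3 and 16.1, with overlap (log2 0.18, SE 0.10, edgeR adjusted p = 0.563). The difference between the class effects of the 2 stages, tested as an interaction in 1 fit, passed for 0.555% of 9911 genes (0.262% upward and 0.293% downward) and for Stmn2 alone among the 10 (log2 0.42, SE 0.08, edgeR adjusted p = 0.00151). It was not run under the alternatives or with a mouse left out. In iOSN2, Stmn2 was lower in class I in mouse 2 alone (12.8 against 16.5), on 11 class I cells. In mouse 4 the class difference was alike in iOSN2 (23.5 against 16.1) and in mature neurons (5.38 against 3.51).

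**Figure D5:**
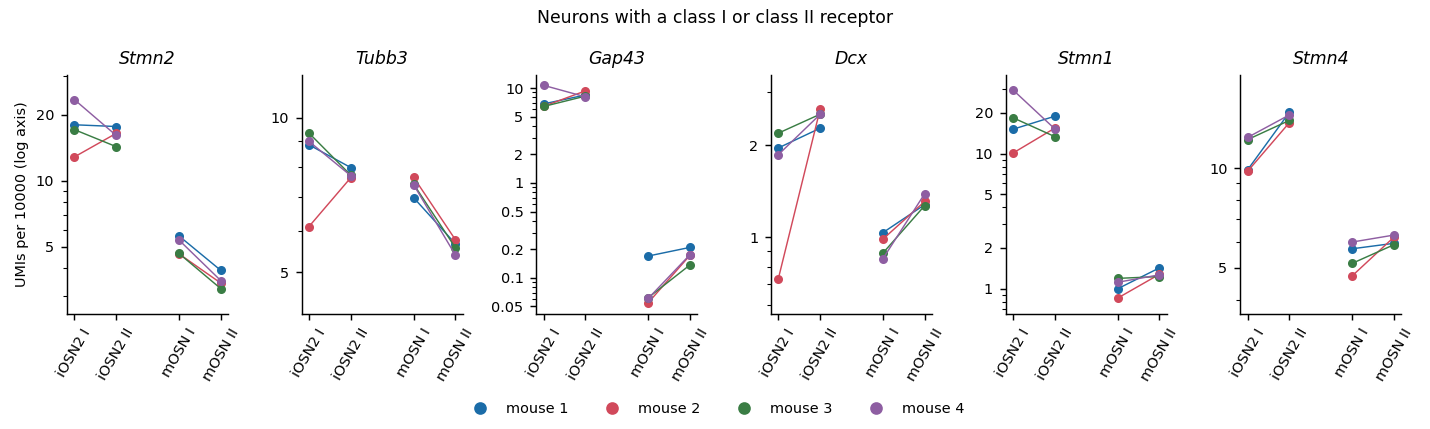
Each panel plots 1 gene on a log axis of UMIs per 10000, in iOSN2 cells and mature neurons (mOSN) with a class I or class II receptor (I and II); each line joins the values of 1 mouse. In mOSN all 4 lines fall from class I to class II for Stmn2 and Tubb3 and rise for Gap43 and Dcx, and in iOSN2 the lines of Stmn2 cross.

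Genes with the most similar levels over the cell types were looked up for Gap43, Gng8, Stmn3 and Tubb3. Likeness was the Pearson correlation of log2(UMIs per 10000 + 0.1) over 40 sums (10 cell types in 4 mice) among 3660 genes, a description, since the sums of a mouse share a library and those of a type share their cells. Gap43 was most like Ly6h (r = 0.931), Prph, which encodes the intermediate filament peripherin (0.912), Stmn2 (0.877), Arhgdig (0.876) and Crmp1 (0.870), a further collapsin response mediator. Ly6h was at 0.852, 5.23, 2.40 and 0.128 UMIs per 10000 from INP to mOSN, and Prph at 0.125, 2.66, 0.311 and 0.0367. Gng8 was most like Vim (r = 0.949), which encodes the intermediate filament vimentin, Pdap1 (0.941), the bHLH factor Nhlh1 (0.932), Atp8b4 (0.928) and Hdac2 (0.924), a histone deacetylase.

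For Stmn3 the most similar genes were Ncam1 (r = 0.978), the neural cell adhesion molecule, Rtn1 (0.978), the transcription factor gene Atf5 (0.977), Syt11 (0.974) and Septin3 (0.969). For Tubb3 they were Lhx2 (r = 0.970) and Ebf1 (0.969), both transcription factor genes of OSNs, Rnf182 (0.963), Soga3 (0.962) and Elavl3 (0.961). Lhx2 was at 32.0 in INP and 4.89 in mOSN, and Ncam1 at 10.7 and 14.4 UMIs per 10000.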

How the data were processed

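Single cells of the main olfactory epithelium of 4 mice were profiled with the 10x 3′ kit. Per the study's methods, Cell Ranger 6.0.1 aligned the reads to GRCm38 with an Ensembl 102 annotation whose receptor genes had been redrawn, and the authors deposited raw UMI counts per cell, with their cell names. The authors removed immune and blood clusters, clusters of cells high in mitochondrial transcripts, and cells under 1000 genes or above 10% mitochondrial UMIs, and 15859 of 21809 barcodes were retained.

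Counts were summed per mouse and cell group. They were compared with edgeR 4.0.16 (quasi-likelihood test, TMM scaling, filterByExpr, Benjamini-Hochberg threshold 0.05, R 4.3.3), with the mouse as a block, over all genes but the 1430 receptor features. The quasi-likelihood test gives no SE, so each SE was taken as the absolute log2 change divided by the square root of the F value. The same animal gave every sum of a block. The deviations of same-mouse stage sums correlated at −0.00898 to 0.332 over 24 pairs, 8 of them over 0.1. Each group had 1 library per mouse, and an exact sign-flip test over 4 mice cannot go below p = 0.125. DESeq2 1.42.0 was one of the alternatives. Scripts were tested on simulated data. Scrublet (scanpy 1.11.5) called 3, 1, 3 and 37 doublets in mice 1 to 4, shares too low in 3 of them to be taken as working, and no retained cell was removed on its calls. An alternative left out the barcodes with the highest scores. From the mature clusters and receptor classes the authors had left out neurons with more than 1 well-expressed receptor as possible multiplets.

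Receptor class was taken from the deposited receptor identities, which a limit of 8.28 receptor UMIs per 10000 gave back for 10519 of 10519 mature neurons, and the same rule was applied to iOSN2. Named beside the 10 genes were G protein genes, the list genes with the largest changes from iOSN2 to mOSN, and the 5 genes most like a member. The 10 genes and all lists were chosen with earlier results of these data known.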

Additional observations from a re-analysis of the deposited data

Results flagged for a closer look

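Of the 140 levels of the 10 genes in cell types and mature clusters that were examined, 7 had 1 mouse far from the other 3 (Dixon's criterion at 95%), and chance alone gives about 1 in 20 such groups. Gng8 in mOSN was at 0.0369 UMIs per 10000 in mouse 1 and at 0.0280 to 0.0295 in the others. Gng8 in the Calb2 dorsal cluster was at 0.0593 in mouse 1, against 0.0178 to 0.0211, on 8 UMIs in all. In the Cd55 dorsal cluster Gng8 was at 0.0606 in mouse 2 and 0 in the others, on 1 UMI, and in the Cd55 ventral cluster at 0.134 in mouse 2, against 0.0407 to 0.0517, on 13 UMIs. Stmn1 in the Cd55 dorsal cluster was at 2.12 in mouse 3, against 0.666 to 0.757. Dpysl3 in the Dlg2 ventral cluster was at 0.0408 in mouse 4, against 0.0736 to 0.0778. Dpysl5 in the Dlg2 dorsal cluster was at 0.196 in mouse 4, against 0.111 to 0.118.

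The class I minus class II difference of Stmn2 was larger in mature neurons than in iOSN2 by log2 0.42 (interaction test, edgeR adjusted p = 0.00151), a contrast added after the data were seen. It was not run under the alternatives, and the class I iOSN2 sum of mouse 2 rested on 11 cells.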

How the results depend on the processing

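Of the results of the 10 genes under all alternatives, 1052 stayed the same in direction and call, 34 lost the call, 5 gained it and 13 turned direction. Among the 1052 are 105 of the test over mature clusters, which has no direction and was judged on the call alone. From iOSN2 to mOSN and from low to middle Omp none changed. Thinning to 3000 UMIs lowered the count of all genes called to 3146 from INP to iOSN1, 3243 from iOSN2 to mOSN, 3726 from low to middle Omp, 1407 from middle to high Omp, 1252 for the class in mature neurons, 53 for the class in iOSN2 and 2554 for the clusters. Fewer counts and fewer cells enter these fits, and the Omp groups were set anew from the thinned counts, so these steps cannot be told apart. Leaving out the barcodes with the highest Scrublet scores changed no call. Omp limits of 10 and 40 gave 1842 from none to low.

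Without the mouse as a replicate block, 1872 genes passed from middle to high Omp and 1080 for the class in mature neurons, with 3 of the 10 genes. DESeq2 gave 1017 and 71 genes for the class in mature neurons and iOSN2, and 4 of the 10 genes in the former. The dorsal clusters alone gave 545. Leaving out 1 mouse gave 5 to 7 of the 10 genes for the class in mature neurons (5 without mouse 1) and 70 to 133 genes in iOSN2 (70 without mouse 1). In iOSN2, 1 of the 10 (Stmn4) passed when scaled by library size alone or without the low-count filter. The share of iOSN1 with Gap43 was 94.3% at 2000 UMIs and 91.6% when at least 2 UMIs were required. With at least 2 UMIs it was 15.3% in INP, 50.4% in iOSN2 and 0.698% in mOSN, and over the 10 genes, the 4 neuronal types and these settings 109 of the other shares moved by more than the spread between mice and 8 did not.

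In log2 change, and without passing the test, the direction turned for Gng8 (0.0077 without the filter) and Stmn2 (0.011 by library size alone, 0.022 without the filter) from INP to iOSN1. From none to low Omp it turned for Gng8 (0.0038 with limits of 10 and 40) and Stmn1 (−0.19, thinned). For the class in mature neurons it turned for Gng8 (0.42 without mouse 3, and −0.37 to 0.42 over the mice left out), Stmn3 (−0.031, dorsal clusters) and Dpysl5 (0.0046, thinned). For the class in iOSN2 it turned for Gng8 (−0.25 and −0.13 without mouse 3 or 4, −0.25 to 0.55 over the mice left out, −0.027 with the strict cell filter, −0.62 thinned) and Stmn1 (−0.067 without mouse 4, −0.067 to 0.40 over the mice left out). Where not stated, the cause was not tested. In iOSN2 the class I sum of 1 mouse rested on 11 cells.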

Other observations

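The longer list of growth cone, cytoskeleton and young neuron genes was also read by receptor class. In mature neurons 47 of its genes were tested, 13 were higher and 6 lower in class I neurons (9.71% and 8.89% of all genes), and the median log2 difference was 0.08, while that over all genes was near 0. In iOSN2 42 were tested and 2 passed (1.8% of all genes), both higher in class I, Tmsb4x (log2 0.34, SE 0.09), a small actin-binding protein, and Rnd2 (log2 0.61, SE 0.13), and both were named after their values were seen. Among the G protein genes, Gng13 and Gnal were lower in class I iOSN2 (log2 −0.41, SE 0.09, and −0.42, SE 0.09), where Omp was also lower (39.9 ± 3.76 UMIs per 10000 against 48.9 ± 2.40), and its part was not tested. In mature neurons Gng13 differed by log2 −0.08 (SE 0.02) and Gnal did not pass (log2 −0.04, SE 0.03), and the interaction passed for both (edgeR adjusted p = 0.0274 and 0.00482). That interaction was not run under the alternatives.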
